A study of Rattus norvegicus with 6 samples.

Results

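The miR-129 family comprises a 5p arm that 2 hairpin genes share, rno-miR-129-5p, and a 3p arm particular to each gene, rno-miR-129-1-3p and rno-miR-129-2-3p. These were the 3 of 493 mature miRNAs in the count table whose names begin with miR-129, and all 3 were among the 452 that passed the filter on low counts. The members were chosen by name and not by a threshold on their counts. The family was, however, picked for description with the counts of both groups known, so the group differences of its members are given below as a description, without p-values. Peri-infarct cortex came from male Sprague-Dawley rats of 250 to 270 g, with 1 library per rat. In the MCAO group (n = 3) a 90 min occlusion of the right middle cerebral artery was made and tissue was taken at day 7, counted from reperfusion in 2 rats and from surgery in 1. In the MCAO + rTMS group (n = 3) the same occlusion was followed by 10 Hz repetitive transcranial magnetic stimulation for 10 min daily on 7 consecutive days. The sample labels give no day of tissue collection for this group. An equal time after reperfusion in both groups therefore cannot be taken from them. The study titles its list of miRNAs that differed in the peri-infarct region as 7 days after modelling. Its methods start rTMS the day after reperfusion and continue it for 7 days. Both groups carried the infarct, and sham-operated or unstimulated uninjured cortex was not analysed here. The age of the rats is not given in the sources used here.

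A miRNA hairpin is cut into a duplex of a 5p and a 3p strand, of which 1 is usually loaded into Argonaute while the other is degraded. The loaded strand finds its target mRNAs mainly through its seed. miR-129 is a brain miRNA, and its 5p strand is known for a part in neuronal excitability. It represses the mRNA of the potassium channel Kcna1 when mTOR is active, and it has been linked to the downscaling of excitatory synapses. Both strands come from the same cut hairpin, so the 5p to 3p ratio is a measure apart from the level of the family.

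The mature sequences, taken from RefSeq with its GRCr8 assembly, are shown because the overlap of the 3p arms sets what their counts can tell apart. The seed, bases 2 to 8, is in capitals.
rno-miR-129-5p: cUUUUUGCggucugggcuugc
rno-miR-129-1-3p: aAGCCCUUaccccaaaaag
rno-miR-129-2-3p: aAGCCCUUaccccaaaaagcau
The 3p arms shared their seed, and the 5p arm had another. No other miRNA of the table that could be matched to a mature sequence (451 of 493) had either seed. The RefSeq entry of miR-129-1-3p, at 19 bases, was identical to the first 19 of the 22 bases of miR-129-2-3p. Such containment of one row's sequence within another's was found for 2 of the 451 rows, the other being miR-299b-3p, named here for its sequence.

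The hairpins are given 5′ to 3′ with the mature arms in capitals. Mir129-1 lies at chr4:58589711-58589782 on the plus strand and Mir129-2 at chr3:100657390-100657486 on the minus strand of GRCr8.
Mir129-1: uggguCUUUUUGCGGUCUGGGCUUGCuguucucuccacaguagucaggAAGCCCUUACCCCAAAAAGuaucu
Mir129-2: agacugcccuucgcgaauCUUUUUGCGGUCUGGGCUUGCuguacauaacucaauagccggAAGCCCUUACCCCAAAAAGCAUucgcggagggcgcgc
The 5p arm was the same 21 bases in both hairpins, so its counts cannot be divided between the genes. Over the 22 bases that start at the 3p arm, the Mir129-1 hairpin differed from miR-129-2-3p by 1 substitution, U20C, with positions counted from the 5′ end of the 3p arm and the Mir129-1 base first. A 3p read that ends before position 20 therefore fits both genes, and how the authors assigned such reads is not given in the sources used here. In the RefSeq gene table Mir129-1 overlapped the long non-coding RNA LOC120102250 and stood between the protein-coding genes Snd1 and Lep, while Mir129-2 overlapped no other gene and stood between Hsd17b12 and Ttc17.

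Library totals lay between 10492610 and 13111127 counts in the MCAO group and between 13722761 and 15411620 in the MCAO + rTMS group. The TMM scaling factors of edgeR, which correct for a few very abundant miRNAs, did not overlap between the groups either, at 1.16 to 1.39 and 0.695 to 0.864. The lowest factor belonged to MCAO + rTMS replicate 3. In that library the median miRNA lay 0.417 log2 units from the mean of the other 2 libraries of its group, against 0.149 to 0.302 for the other 5 libraries, so results are given with and without it where they rest on it. Levels are CPM, the counts at a common TMM-scaled library size of 1000000. A miRNA read covers the whole molecule, so no correction for length was made, but adapter ligation favours some ends over others and levels of different arms are therefore compared as read counts only.

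miR-129-5p was the main product of the family in all 6 libraries and was higher in every MCAO + rTMS rat than in any MCAO rat. Groups that did not overlap, in either direction, were found for 66.8% of the tested miRNAs. The same share stands beside the lack of overlap given for each 3p arm below. Its counts were 234076, 211690 and 203184 in MCAO replicates 1 to 3 and 325866, 383020 and 595872 in MCAO + rTMS replicates 1 to 3. At these counts the counting error was at most 0.222% of the value, and at most 1.91% for the 3p arms, far under the spread between rats. As levels, the MCAO libraries were at 14903, 17465 and 12726 CPM and the MCAO + rTMS libraries at 24511, 32292 and 57912 CPM. The MCAO rats lay close together, the highest being 1.37 times the lowest, while in the MCAO + rTMS group replicate 3 was 2.36 times replicate 1. The group means were 15031 ± 2372 CPM and 38238 ± 17480 CPM (SD, n = 3 each), a fitted difference of 1.35 on the log2 scale (standard error 0.32), or 2.54-fold. Without MCAO + rTMS replicate 3 the difference was 0.94. The arm took 1.86% ± 0.138 of all counts without rTMS and 2.98% ± 0.970 with it (SD, n = 3 each), and by this share too the groups did not overlap. By mean level it ranked 7 among the 452 miRNAs, moving from rank 11 or 12 in the MCAO libraries to ranks 6 to 8 in the MCAO + rTMS libraries.

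**Figure D1:**
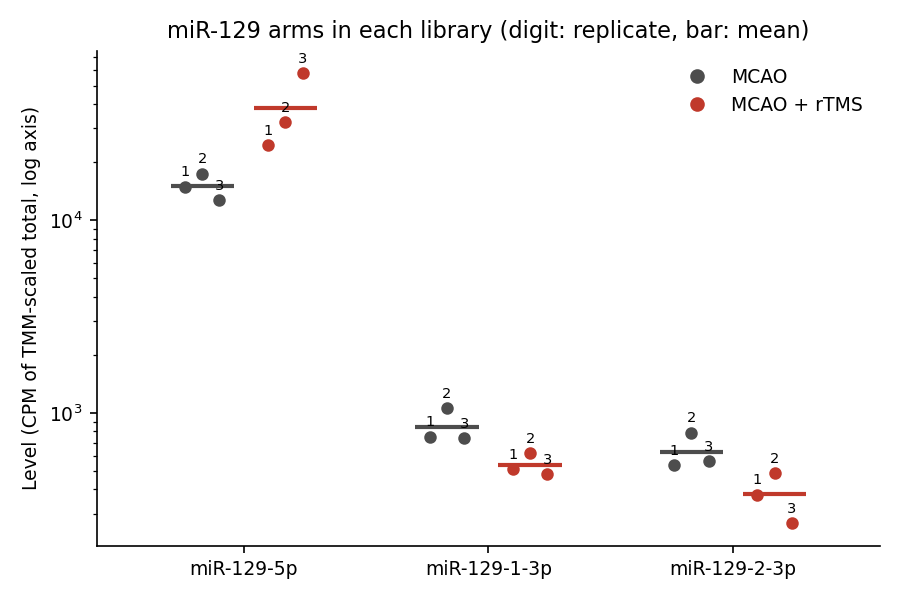
Levels of the 3 miR-129 arms in each library, in CPM of the TMM-scaled total on a log axis, with the replicate number above each point and a bar at the group mean (n = 3 per group). miR-129-5p sits above all MCAO points in the 3 MCAO + rTMS libraries, and both 3p arms sit below.

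miR-129-1-3p moved the other way, and every MCAO + rTMS rat was below every MCAO rat. It had 11829, 12760 and 11799 counts in MCAO replicates 1 to 3 and 6762, 7291 and 4949 counts in MCAO + rTMS replicates 1 to 3. The corresponding levels were 753, 1053 and 739 CPM and then 509, 615 and 481 CPM. Group means were 848 ± 177 CPM and 535 ± 70.6 CPM (SD, n = 3 each), with a fitted log2 difference of -0.67 (standard error 0.21), or 1.59-fold lower. The nearest libraries of the groups, MCAO replicate 3 and MCAO + rTMS replicate 2, were 739 and 615 CPM, a gap smaller than the SD of the MCAO group. Without MCAO + rTMS replicate 3 the difference was -0.57.

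miR-129-2-3p followed its partner at a lower level. Its counts were 8371, 9566 and 8956 in the MCAO libraries and 4994, 5780 and 2750 in the MCAO + rTMS libraries. At 533, 789 and 561 CPM in MCAO replicates 1 to 3 and 376, 487 and 267 CPM in MCAO + rTMS replicates 1 to 3, the groups again did not overlap, with replicate 3 the lowest of the stimulated rats. Group means were 628 ± 141 CPM and 377 ± 110 CPM (SD, n = 3 each), a log2 difference of -0.74 (standard error 0.27), or 1.67-fold lower, and -0.52 without MCAO + rTMS replicate 3. The closest libraries, MCAO replicate 1 and MCAO + rTMS replicate 2, were 533 and 487 CPM.

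In the fit of all 452 miRNAs (quasi-likelihood test of edgeR, p adjusted by Benjamini-Hochberg, threshold 0.05), miR-129-5p was called higher in the MCAO + rTMS group, as were 27.2% of all tested miRNAs. miR-129-1-3p was called lower, as were 28.1%, and miR-129-2-3p was not called. The groups did not overlap in 3 of 3 members, but neither did they in 66.8% of the tested miRNAs, so the lack of overlap was common in these libraries and nothing is read from it. The call of miR-129-5p was kept with each of the 6 libraries left out in turn. That of miR-129-1-3p was kept in 2 of 6 and was lost without MCAO replicate 1, MCAO replicate 2, MCAO + rTMS replicate 1 or MCAO + rTMS replicate 2.

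The direction of each member was the same under the 5 scalings run, but the size was not. The median of the 452 differences was itself below 0, at -0.21 after TMM scaling and -0.80 with library totals only. With library totals only, the log2 difference was 0.68 for miR-129-5p, -1.27 for miR-129-1-3p and -1.32 for miR-129-2-3p. All 3 were then called, beside 12.2% of all tested miRNAs called higher and 46% lower. A change of scaling shifts all miRNAs nearly alike, so the values measured from the median of the same fit could hardly move. miR-129-5p stood 1.55 above that median after TMM scaling and 1.48 above it when library totals alone were used. The corresponding values were -0.46 and -0.47 for miR-129-1-3p and -0.53 and -0.52 for miR-129-2-3p.

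**Figure D2:**
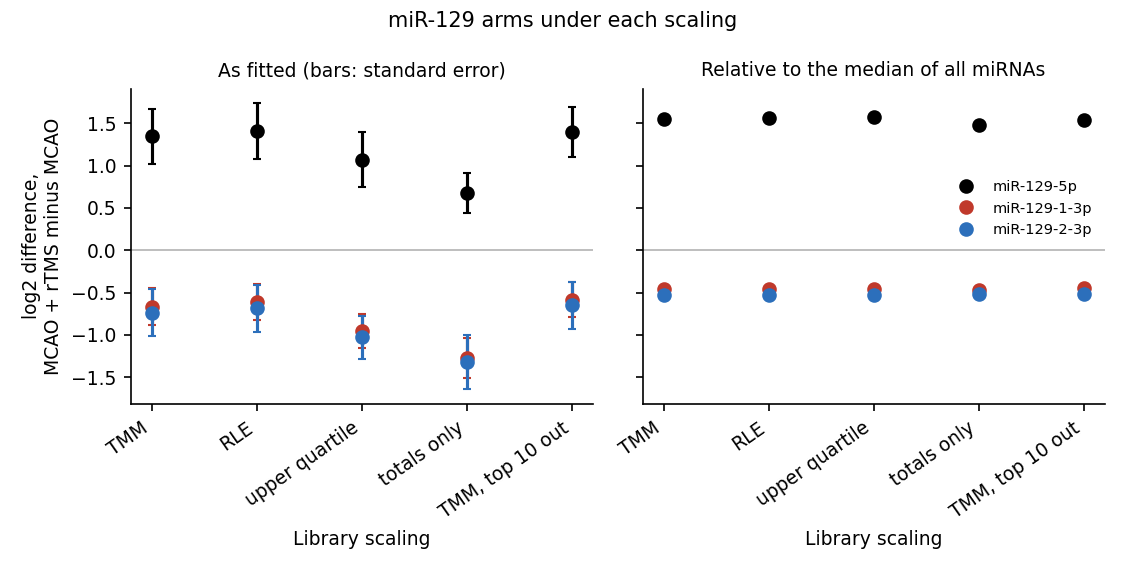
Log2 difference between the MCAO + rTMS and MCAO groups for the 3 arms under 5 library scalings, as fitted with standard errors (left) and relative to the median of all tested miRNAs (right). miR-129-5p stays above 0 and the 3p arms below 0 throughout. The right panel is nearly flat, which had to follow because a scaling shifts all miRNAs nearly alike.

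Ratios of counts within a library are free of scaling altogether. miR-129-5p exceeded miR-129-1-3p 19.8-fold, 16.6-fold and 17.2-fold in MCAO replicates 1 to 3, and 48.2-fold, 52.5-fold and 120-fold in MCAO + rTMS replicates 1 to 3. Against miR-129-2-3p it was 28.0-fold, 22.1-fold and 22.7-fold higher in the MCAO libraries and 65.3-fold, 66.3-fold and 217-fold higher in the MCAO + rTMS libraries. The MCAO rats agreed within a narrow range, MCAO + rTMS replicates 1 and 2 were close to each other, and replicate 3 stood well above both. On the log2 scale the ratio of miR-129-5p to miR-129-1-3p averaged 4.16 ± 0.134 in MCAO rats and 6.07 ± 0.729 in stimulated rats (SD, n = 3 each), a change of 1.92, or 3.78-fold. For miR-129-2-3p the averages were 4.59 ± 0.185 and 6.61 ± 0.993 (SD, n = 3 each), a change of 2.02, or 4.06-fold. Leaving out MCAO + rTMS replicate 3 lowered these changes to 1.50 and 1.45.

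Because the 3p arms can share reads, their counts were also summed. The 5p arm then made up 92.1%, 90.5% and 90.7% of the family's reads in MCAO replicates 1 to 3 and 96.5%, 96.7% and 98.7% in MCAO + rTMS replicates 1 to 3. The log2 ratio of 5p to summed 3p changed by 1.96, or by 1.48 without MCAO + rTMS replicate 3. Fitted as 1 row, the summed 3p arms had a log2 difference of -0.70 (standard error 0.23). With both rows lower, a lower sum had to follow. If each read was counted in only 1 row, the sum gives the direction of the 3p total, however reads were split. Whether a read that fits both rows was counted in both is not known here. In that case the sum would hold such reads more than once, and the 5p shares would be too low. The direction of either 3p arm alone could still depend on how reads were split between the rows, which was not tested.

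**Figure D3:**
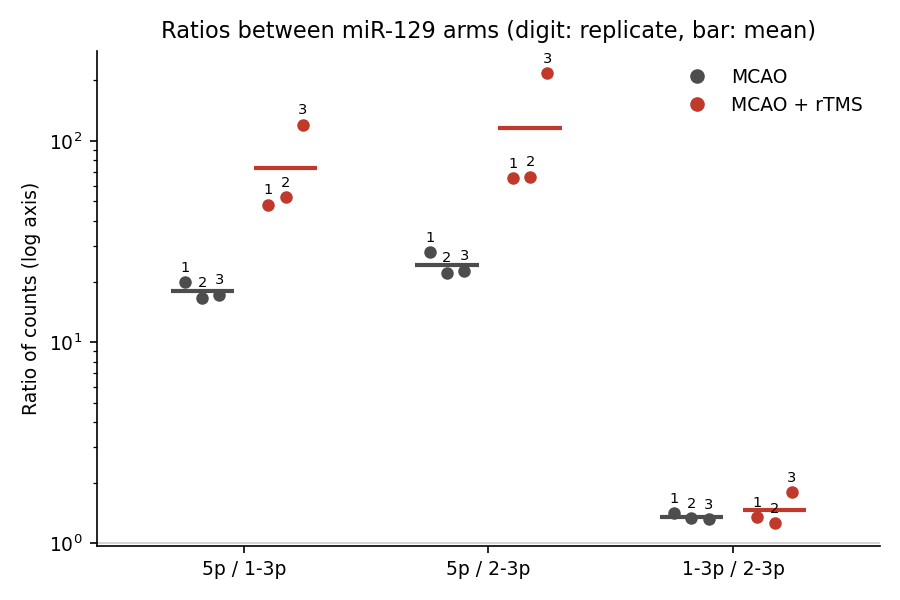
Ratios of counts between the miR-129 arms in each library on a log axis, with the replicate number above each point and a bar at the group mean (n = 3 per group). The 5p to 3p ratios of the MCAO + rTMS libraries lie above all MCAO libraries with replicate 3 highest, while the ratio between the 3p arms stays between 1.26 and 1.80.

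Between the 3p arms themselves the ratio changed little between the groups, with MCAO + rTMS replicate 3 the highest. A read that fits both rows may have been counted in either or both, so the rows may not be separate measures. The part of such reads in this ratio was not tested. miR-129-1-3p was 1.41, 1.33 and 1.32 times miR-129-2-3p in MCAO replicates 1 to 3 and 1.35, 1.26 and 1.80 times in MCAO + rTMS replicates 1 to 3. The groups overlapped, and the mean log2 ratio changed by 0.10 with a pooled SD of 0.20. MCAO + rTMS replicate 3 decided its sign: without it the change was -0.051. The order of the levels, 5p above 1-3p above 2-3p, held in all 6 libraries. Within each group the levels of the 3p arms overlapped between rats, so these neighbours in the order were separated only within libraries, whereas miR-129-5p lay far above both.

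Arm ratios moved widely across the whole table. Of 167 pairs of a 5p and a 3p arm in which both were tested, counting a shared arm once with each of its partners, the groups did not overlap in 58.1%, and the 5p to 3p log2 ratio was higher by at least 1 in the MCAO + rTMS group in 34.1%. Both miR-129 pairs were in each of these sets. Their changes ranked 25 and 31 from the most positive of the 167, which ran from -6.05 to 5.21 with a median of 0.02. Both extremes come from arms with few counts, where the added 0.5 weighs heavily. Behind -6.05 was miR-300-5p, with a mean of 1.73 CPM without rTMS and 0 with it. Behind 5.21 was let-7a-2-3p, at 1.29 and 0.35 CPM. Some pairs placed above miR-129, such as those of miR-218a-2-3p and miR-337-3p, had a 3p arm recorded at 0 in the MCAO + rTMS group. No count above 0 was under 10, so a recorded 0 may stand for fewer than 10 counts and not for absence. These ranks and shares therefore mix abundant arms with nearly absent ones. A 5p arm above 0 with its 3p arm below 0, the pattern of both miR-129 pairs, was seen in 35 pairs, or 21.0%, and in 34 to 36 pairs under the other scalings. Among the 3 MCAO + rTMS libraries, replicate 3 was the farthest from the MCAO mean in 53.3% of the pairs, replicate 1 in 25.7% and replicate 2 in 21.0%.

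**Figure D4:**
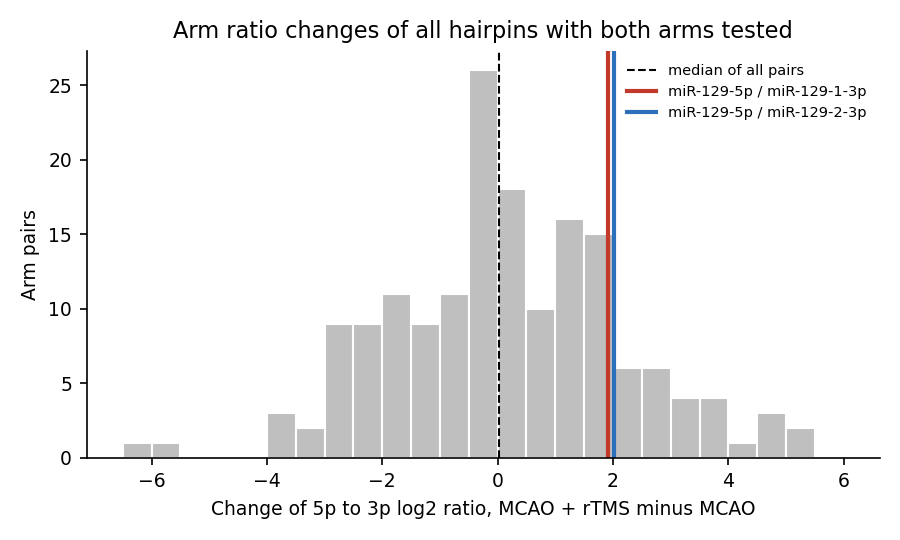
Histogram of the change in 5p to 3p log2 ratio between the MCAO + rTMS and MCAO groups for 167 arm pairs, with the 2 miR-129 pairs and the median of all pairs marked. The miR-129 pairs, at 1.92 and 2.02, lie on the upper side of a distribution centred near 0.

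A shared arm with 2 locus-specific partners was found by name in 13 families, and all rows were tested in 11. The log2 differences of the 2 locus arms of a family lay 0.72 apart at the median of these 11, from 0.07 in the miR-129 family to 1.68 in the let-7c family. The next closest were those of miR-30c, 0.09 apart. The counts of let-7c-2-3p equal those of let-7a-1-3p in each library, so these families are not independent. Mature sequences were at hand for both locus arms in 10 of the 11, and miR-129 was the only one of these whose locus arms were the same over the whole shorter sequence. In miR-30c the locus arms shared their first 8 bases and in miR-24 their first 16. Both locus arms moved against the shared arm in 7 of the 11 families, miR-129 among them, and in 6 with library totals only, where miR-181a no longer did. This count goes by sign alone. Some differences were close to their standard errors, such as miR-30c-5p at -0.33 (standard error 0.30) and miR-7a-2-3p at -0.25 (standard error 0.24). The arms let-7f-2-3p and let-7a-2-3p averaged at most 3.07 CPM in either group. In let-7a, let-7f and miR-7a the shared arm was also above 0 and the locus arms below, while in miR-125b, miR-181a and miR-30c the shared arm was below 0 and the locus arms above.

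**Figure D5:**
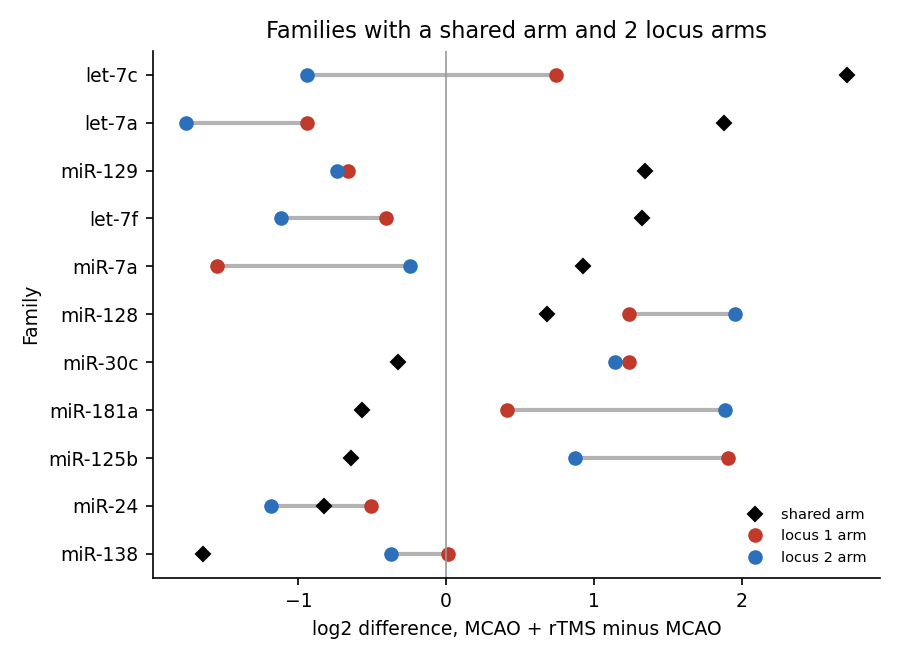
Log2 difference between the MCAO + rTMS and MCAO groups (TMM scaling) for the shared arm (diamond) and the locus arms (circles, joined by a line) of 11 families. The circles of miR-129 nearly coincide at -0.67 and -0.74, with the shared arm at 1.35.

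By the shape of their levels over the 6 libraries, measured as the root mean square difference of centred log2(CPM + 1) values, the miRNAs most like miR-129-5p were miR-99b-5p (0.183), miR-504 (0.185) and miR-361-3p (0.187). Its own 3p arms were far down this order, at places 282 and 326. Nearest to miR-129-1-3p were miR-324-5p (0.127), miR-23b-3p (0.141) and miR-129-2-3p (0.167). Conversely, miR-129-1-3p was the nearest of all to miR-129-2-3p, followed by miR-133b-3p (0.183) and miR-100-3p (0.192), of which the last was present at 0.830 CPM on average. The closeness of the 3p arms is subject to the same limit, as reads that fit both rows may have entered both counts.

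Other miRNAs known for control of excitability or synaptic strength, a list of 20, did not move as a block. Of the 20, all tested, 4 (20.0%) were called higher after rTMS and 9 (45.0%) lower, beside 27.2% and 28.1% of all tested miRNAs, and 7 were not called. The median log2 difference of the list was -0.53, beside -0.21 for all 452 miRNAs. miR-485-5p, which acts on synaptic vesicle protein Sv2a, rose by 2.14 (standard error 0.20) and miR-134-5p, a regulator of dendritic spine size through Limk1, rose by 1.03 (standard error 0.18). miR-138-5p, which restrains spine growth, fell by 1.65 (standard error 0.18) and miR-137-3p fell by 2.16 (standard error 0.33). The activity-regulated miR-132-3p, at -0.43 (standard error 0.28), and the neuronal miR-124-3p, at -0.49 (standard error 0.21), were not called. miR-128-3p, the most abundant of the list, rose by 0.69 (standard error 0.23), a call that was lost with upper-quartile factors and with library totals only. With library totals only, 1 of the 20 was called higher and 13 lower, the higher one being miR-485-5p, while the calls over all 452 miRNAs shifted the same way, to 12.2% higher and 46.0% lower.

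Cell composition was read from marker miRNAs, whose calls stand beside 27.2% higher and 28.1% lower over all tested miRNAs. The summed level of 4 neuronal markers was 323530 to 420381 CPM in MCAO rats and 423221 to 610335 CPM in MCAO + rTMS rats, with 1 of 4 called higher and 1 lower. The higher sum came from miR-128-3p, whose mean level went from 212000 to 341000 CPM, while the log2 differences of miR-124-3p, miR-138-5p and miR-9a-5p were -0.49, -1.65 and -0.16. The difference of miR-128-3p was 0.41 with upper-quartile factors and 0.039 with library totals only, and was called in neither. All 4 were present in this tissue, and all 4 belong to the list of 20 above. The 5 microglial and leukocyte markers summed to 695 to 718 CPM and 312 to 549 CPM, with 4 called lower. Most of this sum was miR-146a-5p, at group means of 618 and 414 CPM, which was the marker not called. The 4 called markers averaged 4.49 to 61.8 CPM in the MCAO group, so the sum says little about them. The 2 endothelial markers summed to 2993 to 6298 CPM and 2017 to 3293 CPM, with 1 called lower. Here too the sum was mostly the marker not called, miR-126a-3p, at group means of 4842 and 2699 CPM. The called marker, miR-126a-5p, was at 72.13 and 30.95 CPM. Oligodendrocyte markers summed to 572 to 786 CPM and 963 to 2106 CPM, and 1 of the 2 tested was called higher. That one, miR-219a-2-3p, made up most of the sum, with group means of 692 and 1617 CPM. The other, miR-338-3p, had a log2 difference of -0.73, with group means of 21.3 and 12.9 CPM, and was not called. Red blood cell markers (2 of 3 listed were analysed, at 141 to 302 and 513 to 637 CPM, 1 of 2 higher and 1 lower) and skeletal muscle markers (82.1 to 143 and 240 to 394 CPM, 2 of 4 higher and 2 lower) also differed in sum. In bulk tissue, fewer cells of a type and less miRNA per cell cannot be told apart, and the part of these shifts in the miR-129 levels was not tested. The GC content of the members, 57.1% for the 5p arm and 47.4% and 45.5% for miR-129-1-3p and miR-129-2-3p, stood beside a median of 47.8% over 414 tested miRNAs with a sequence. Across these 414, GC content and the log2 difference had a Spearman correlation of 0.29, given as a description since miRNAs share their libraries, and its part in the difference between the arms was not tested.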

How the data were processed

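Small RNA libraries were prepared with the NEBNext Multiplex Small RNA kit from total RNA of 6 rats, 3 per group, and sequenced on an Illumina HiSeq instrument. The authors deposited raw read counts per mature miRNA, 1 column per library, without normalization. The submitters' processing notes list bcl2fastq, BWA, DESeq2 and the rn6 build. The miRNA database and the rule for reads that fit several miRNAs are not given in the sources used here. The smallest count above 0 was 10. A second deposited table repeats a selection of the count rows, without miR-129, and was not used.

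Counts were filtered with filterByExpr (452 of 493 rows kept), scaled by TMM and compared with the quasi-likelihood test of edgeR 4.0.16 in R 4.3.3, with Benjamini-Hochberg adjustment over the 452. The standard error is the log2 difference divided by the square root of F. The methods of the study name a two-tailed Student test, which was run as an alternative. Log2 ratios of member arms used raw counts, and those of all arm pairs used counts plus 0.5. Profiles were compared as log2(CPM + 1). The other alternatives were upper-quartile or RLE factors, no factors (library totals only), TMM without the 10 most abundant miRNAs, DESeq2 1.42.0, limma-voom (limma 3.58.1), no filter, a mean count above 200, the replicate number as a block, each library left out, and, chosen after seeing the data, the summed 3p rows. The fit was tested on simulated data. Tables and figures were made in Python with scipy 1.17.1 and matplotlib 3.10.9.

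Members, lists and tests were chosen with earlier results of these data known. Named miRNAs are the members, the 3 nearest profiles of each, all members of the fixed lists, and families with a shared arm and 2 locus arms. Totals of 10492610 to 15411620 counts per library make counting error small for the members. The reads carry no molecular identifiers used here, so such error covers counting only. The p-values weigh each group difference against the spread between libraries of the same group. Each library came from a different rat, so variation between rats and variation between library preparations are not separated.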

Additional observations from a re-analysis of the deposited data

How the results depend on the processing

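The miR-129 arms kept their direction in every fit run: the log2 difference ranged from 0.68 to 1.58 for miR-129-5p, from -1.27 to -0.48 for miR-129-1-3p and from -1.32 to -0.52 for miR-129-2-3p. The values that moved beyond the spread between replicates were those with library totals only (0.68, -1.27 and -1.32, in the same order, with the median of all miRNAs at -0.80) and, for miR-129-1-3p, with upper-quartile factors (-0.96). These scalings shift all miRNAs together, so relative to the median the arms could move only a little. With 1 library left out, the differences ran from 0.94 to 1.58, from -0.74 to -0.48 and from -0.92 to -0.52, and the change of the ratio of miR-129-1-3p to miR-129-2-3p from -0.051 to 0.21, reversing at -0.051 without MCAO + rTMS replicate 3. The changes of the 5p to 3p log2 ratios stayed between 1.45 and 2.31 in all 7 alternatives each. Past an adjusted p of 0.05 were miR-129-5p in 15 of 16 alternatives, miR-129-1-3p in 11 and miR-129-2-3p in 7. Over these alternatives, 12.2% to 31.8% of all tested miRNAs were called higher and 18% to 46% lower. These tallies describe members picked with the results known. The equal-variance two-sample test called none of the 3. The number of miRNAs past the threshold, 250, ran from 179 to 263. Higher calls were 49.2% of them with TMM factors, 33.1% with upper-quartile factors and 20.9% with library totals only.

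The replicate numbers mark different rats. Deviations from the group means correlated at 0.198, -0.119 and -0.114 between libraries of the same number, so the numbers were not taken as pairs. With a replicate block, 180 miRNAs were called, and the members' log2 differences were 1.26, -0.65 and -0.76. All 3 were called, beside 21.7% of all tested miRNAs called higher and 18.1% lower.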
